A study of Mus musculus with 12 samples.

Results

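The 10 genes described here mark or act in the inner lining of blood vessels: the ligand Angpt2, the receptors Tek, Tie1, Kdr, Flt1 and Robo4, the junction and adhesion proteins Pecam1, Cdh5 and Esam, and the diaphragm protein Plvap. They were taken by gene symbol from the deposited table of 18858 genes, and all 10 passed the filter on low counts. The table comes from poly(A) RNA of whole skin. The mice were of the inbred albino strain BALB/C and 8 weeks old. The labels give 12 samples in 4 treatment groups of 3: TL+L, TSeL, TSeL+L and PBS, the last being phosphate-buffered saline, taken here as the control. The labels give neither what TL, TSeL and L stand for nor a dose, route or time, and no group carries a labelled allele or transgene. The labels do not say whether each sample came from its own animal, so p-values measure only the spread between these samples.

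Endothelial cells line every blood vessel and control what passes from blood into tissue. They grow and branch in response to VEGF, which signals through Kdr and is bound by Flt1, while the angiopoietins act through Tek, with Tie1 as its partner receptor, to set whether vessels are stable or remodel. Cadherin and immunoglobulin-family proteins such as Cdh5, Pecam1 and Esam hold neighbouring endothelial cells together. In skin these cells form the capillary loops and deeper plexuses of the dermis and the vessels around hair follicles.

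The 12 columns held between 16630580 and 17318158 estimated reads. The 3 TSeL columns differed from each other by little more than counting noise, with mean chi-squares per gene of 1.19 to 1.41, as did the 3 TSeL+L columns, with 1.38 to 1.49. Between TL+L samples these were 60.9 to 184, and between PBS samples 25.1 to 59.0. The columns of TSeL, and those of TSeL+L, were therefore averaged and counted as 1 sample each, so both groups have no replicate of their own and were assumed to vary like TL+L and PBS. Their column codes were read as TSeL and TSeL+L without a label that spells them out, and every value of these groups depends on that reading. In TL+L, replicate 2 stood apart from replicates 1 and 3, with 0.565% of counts in hair markers against 2.27% and 3.94%. The fold changes of the 10 genes and the counts of genes called in TL+L are therefore also given without it. That replicate was also the highest TL+L sample for all 10 genes, so leaving it out was bound to make their fold changes more negative.

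All 10 endothelial genes had lower fitted levels in TL+L skin than in PBS skin, and 7 of them fell: Robo4, Tie1, Cdh5, Plvap, Pecam1, Angpt2 and Esam. The fold change and test come from edgeR's quasi-likelihood test over 15791 genes, and a gene was said to fall or rise at a Benjamini-Hochberg adjusted p under 0.05. Of all genes tested, 12.8% passed in this comparison, 7.17% lower and 5.67% higher. Kdr, Flt1 and Tek did not pass. Scaled to library totals without TMM factors, 1521 genes passed higher and 902 lower, where TMM gave 896 higher and 1133 lower, and 7 of the 10 genes still fell. The median log2 fold change of the 10 genes was -1.27, while that of all genes tested was 0.01. For 8 of the 10 genes every TL+L sample lay below every PBS sample, as it did for 21.8% of all genes tested, and Kdr and Tek were the exceptions.

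The samples of a group ranked alike for most of the 10 genes. Their summed level was 377, 681 and 407 CPM (counts scaled to library size with TMM factors) in the TL+L replicates 1 to 3, 644 CPM in TSeL, 439 CPM in TSeL+L, and 1137, 975 and 1339 CPM in the PBS replicates 1 to 3. TL+L replicate 2 was the highest of its group for all 10 genes, and PBS replicate 3 the highest of its group for 9 of them, the exception being Robo4. In whole tissue, fewer endothelial cells and less of these RNAs per cell cannot be told apart.

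The count of 7 depended on single samples. Without TL+L replicate 2 all 10 genes fell, with a median of -1.53, in a fit where 40% of all genes passed, 21.4% lower and 18.6% higher. The log2 fold change was then -1.92 for Robo4, -1.77 for Tie1, -1.75 for Cdh5, -1.65 for Kdr, -1.64 for Pecam1, -1.42 for Plvap, -1.39 for Esam, -1.29 for Angpt2, -1.27 for Flt1 and -1.05 for Tek. Without TL+L replicate 1 the count was 1, where 1.16% of all genes passed, and without TL+L replicate 3 it was 0, where 0.444% did. Leaving out PBS replicate 1 gave 0, where 0.101% of all genes passed, PBS replicate 2 gave 1, where 0.603% did, and PBS replicate 3 gave 1, where 0.92% did. At an unadjusted p under 0.05, 8 of the 10 were lower in each of these 5 fits but the one without PBS replicate 2, where all 10 were. The share of all genes at that threshold was not counted in these fits, so these counts have no background beside them. With no sample left out, Tek ranked 5505 among 15791 genes at an unadjusted edgeR p of 0.0457, so many genes meet that threshold. Every one of the 10 log2 fold changes stayed negative in each of these fits.

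**Figure D1:**
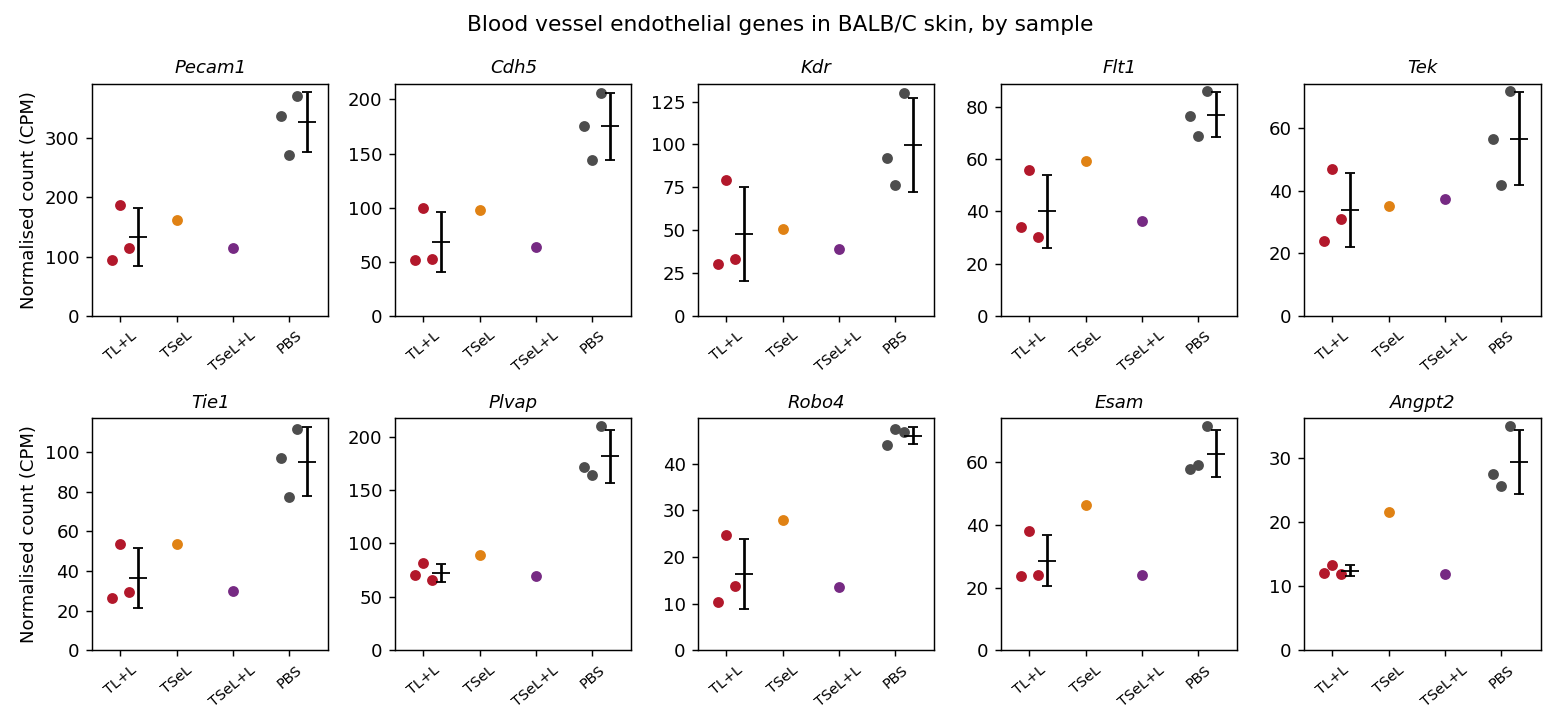
Normalised count (CPM) of each of the 10 genes in every sample, with 1 panel per gene and each axis starting at 0. Points are samples (TL+L and PBS, 3 each; TSeL and TSeL+L, 1 each, the average of 3 columns), and the bars beside TL+L and PBS show the mean ± SD; TL+L replicate 2 is the highest TL+L point in every panel.

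Angpt2 encodes angiopoietin-2, a ligand that endothelial cells store and release and that mostly opposes angiopoietin-1 at the receptor Tek. Angpt2 had 12.1, 13.4 and 11.9 CPM in TL+L skin, 21.5 CPM in TSeL, 11.98 CPM in TSeL+L, and 27.6, 25.7 and 35.1 CPM in PBS skin. The 3 TL+L samples lay close together and below every PBS sample, with TSeL between the groups. Means ± SD were 12.5 ± 0.801 CPM for TL+L skin and 29.4 ± 4.95 CPM for PBS skin (n = 3 each), and the log2 fold change was -1.24 (SE 0.163, edgeR adjusted p 0.0163).

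Tek, also called Tie2, is the angiopoietin receptor tyrosine kinase. Tek had 23.9, 47.1 and 30.9 CPM in TL+L skin, 35.1 CPM in TSeL, 37.5 CPM in TSeL+L, and 56.6, 41.8 and 71.9 CPM in PBS skin. TL+L replicate 2 was above PBS replicate 2, so the groups overlapped. Its log2 fold change in TL+L was -0.74 (SE 0.301, edgeR adjusted p 0.131), the smallest of the 10. Without TL+L replicate 2 it was -1.05 with an edgeR adjusted p of 0.022. Tek did not pass in the other fits that left out a TL+L or PBS sample, with edgeR adjusted p-values of 0.147 to 0.32.

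Tie1, the partner receptor of Tek with no firmly established ligand of its own, had 26.3, 53.6 and 29.6 CPM in TL+L skin, 53.7 CPM in TSeL, 30.0 CPM in TSeL+L, and 97.1, 77.1 and 111 CPM in PBS skin. All TL+L samples were below all PBS samples. The log2 fold change in TL+L was -1.38 (SE 0.300, edgeR adjusted p 0.0377).

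Kdr, or VEGFR2, is the main signalling receptor for VEGF-A on blood vessels. Kdr had 30.2, 79.1 and 33.4 CPM in TL+L skin, 50.8 CPM in TSeL, 39.1 CPM in TSeL+L, and 92.3, 76.6 and 130 CPM in PBS skin. TL+L replicate 2 was higher than PBS replicate 2, and the other TL+L samples were well below all PBS samples. Its log2 fold change in TL+L was -1.07 (SE 0.411, edgeR adjusted p 0.118). Without TL+L replicate 2 it was -1.65 with an edgeR adjusted p of 0.00457. Kdr did not pass in the other fits that left out a TL+L or PBS sample, with edgeR adjusted p-values of 0.17 to 0.284.

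Flt1, or VEGFR1, binds VEGF-A and placental growth factor and, in its secreted form, acts as a decoy for them. Flt1 had 33.9, 56.0 and 30.1 CPM in TL+L skin, 59.4 CPM in TSeL, 36.3 CPM in TSeL+L, and 76.7, 68.8 and 86.0 CPM in PBS skin. The TL+L and PBS samples did not overlap. Its log2 fold change in TL+L was -0.95 (SE 0.250, edgeR adjusted p 0.0529), and -1.27 with an edgeR adjusted p of 0.0018 without TL+L replicate 2. Flt1 did not pass in the other fits that left out a TL+L or PBS sample, with edgeR adjusted p-values of 0.126 to 0.149.

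The deposited transcript table splits Flt1 mainly into NM_010228, the full-length receptor, and NM_001363135, a short transcript that ends before the membrane-spanning part. In GENCODE M21 on GRCm38 the full-length transcript has 3999 coding bases in 30 coding exons and the short one 2064 coding bases in 13. They share the first 1972 coding bases and then part. The coding bases that come next in each are shown because that is where the decoy form and the signalling form part in these reads. Both stretches are on the minus strand of chromosome 5, that of the full-length transcript at chr5:147634434-147634523 and that of the short one at chr5:147639135-147639224. The full-length transcript has 2027 coding bases of its own, of which only the first are printed, and the short one 92. Lower case marks the last shared bases and capitals those that follow in each transcript, 5′ to 3′.
NM_010228: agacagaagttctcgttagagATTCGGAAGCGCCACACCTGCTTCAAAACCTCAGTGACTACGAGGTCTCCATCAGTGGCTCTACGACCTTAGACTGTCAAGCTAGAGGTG
NM_001363135: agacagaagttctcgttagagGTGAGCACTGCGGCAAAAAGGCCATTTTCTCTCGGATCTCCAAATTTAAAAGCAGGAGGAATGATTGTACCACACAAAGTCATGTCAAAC

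The short transcript took 47.2%, 35.4% and 40.3% of Flt1 counts in TL+L skin, against 43.8%, 41.3% and 40.4% in PBS skin. It took 39.2% to 42.2% over the TSeL columns and 36.1% to 40.7% over the TSeL+L columns. The group ranges overlapped, and the short form averaged 41.0% ± 5.90 in TL+L and 41.8% ± 1.77 in PBS (SD, n = 3 each). The full-length transcript took 52.3% to 60.0% in TL+L, 56.9% to 60.0% in TSeL, 57.9% to 61.3% in TSeL+L and 53.2% to 57.9% in PBS. These shares are estimates, since reads from the shared exons have to be divided between the transcripts.

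**Figure D2:**
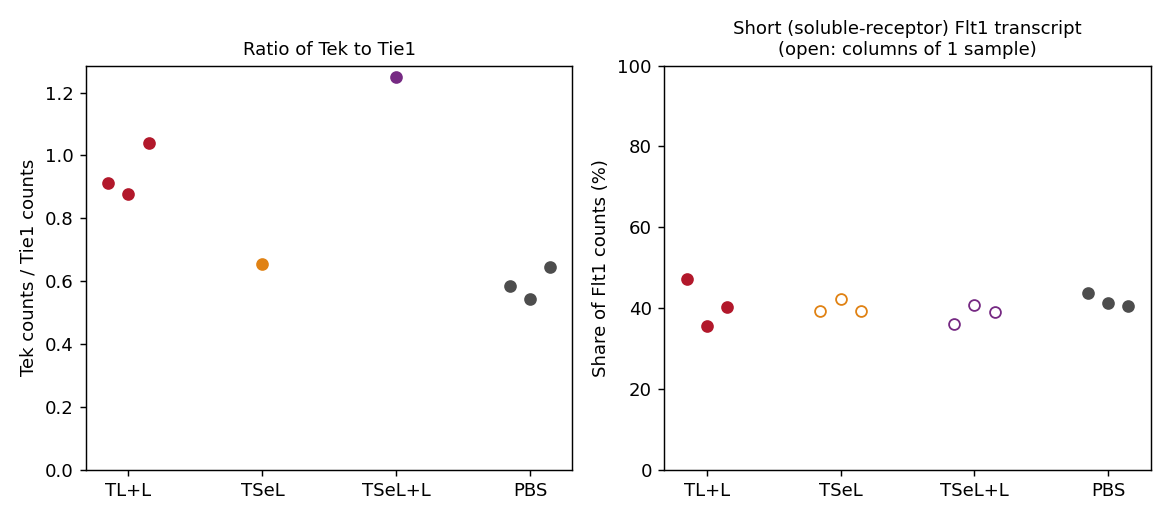
Left, the ratio of Tek counts to Tie1 counts in every sample; right, the share of Flt1 counts (%) given to the short transcript, with open points for the columns averaged to 1 sample. The ratios are 0.878 to 1.04 in TL+L, 0.654 in TSeL, 1.25 in TSeL+L and 0.543 to 0.646 in PBS, while the ranges of the Flt1 share overlap between the groups.

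Robo4 is an endothelial receptor of the Roundabout family that is known for limiting leakage and sprouting. Robo4 had 10.4, 24.7 and 13.9 CPM in TL+L skin, 27.8 CPM in TSeL, 13.6 CPM in TSeL+L, and 44.0, 47.3 and 46.7 CPM in PBS skin. The PBS samples agreed closely and every other sample was below them. Its log2 fold change in TL+L was -1.49 (SE 0.312, edgeR adjusted p 0.0353), the largest of the 10 in this comparison. In linear terms Robo4 was 2.82-fold lower in TL+L skin.

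Pecam1, or CD31, is an adhesion molecule at endothelial borders that is also present on platelets and leukocytes. Pecam1 had 94.9, 188 and 115 CPM in TL+L skin, 162 CPM in TSeL, 114 CPM in TSeL+L, and 338, 272 and 371 CPM in PBS skin. All samples of the treated groups were below all PBS samples. The log2 fold change in TL+L was -1.30 (SE 0.278, edgeR adjusted p 0.0370).

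Cdh5 encodes VE-cadherin, the cadherin of endothelial adherens junctions. Cdh5 had 51.6, 99.9 and 52.2 CPM in TL+L skin, 97.4 CPM in TSeL, 63.3 CPM in TSeL+L, and 175, 144 and 206 CPM in PBS skin. The groups did not overlap, and TL+L replicate 2 was near the TSeL value. The log2 fold change in TL+L was -1.37 (SE 0.298, edgeR adjusted p 0.0377).

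Esam, an immunoglobulin-family adhesion molecule of endothelial tight junctions and platelets, had 23.7, 37.9 and 23.99 CPM in TL+L skin, 46.4 CPM in TSeL, 24.1 CPM in TSeL+L, and 57.6, 58.9 and 71.3 CPM in PBS skin. TSeL was above all TL+L samples and below all PBS samples. The log2 fold change in TL+L was -1.13 (SE 0.218, edgeR adjusted p 0.0308).

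Plvap forms the diaphragms that span the pores and caveolae of capillary endothelium. Plvap had 70.1, 81.6 and 65.6 CPM in TL+L skin, 89.5 CPM in TSeL, 69.4 CPM in TSeL+L, and 171, 164 and 210 CPM in PBS skin. The TL+L samples differed little from each other and lay far below the PBS samples. The log2 fold change in TL+L was -1.32 (SE 0.146, edgeR adjusted p 0.0111), and this adjusted p was the lowest of the 10. Plvap passed in 4 of the 6 fits that left out a TL+L or PBS sample, with adjusted p-values of 0.0576 when PBS replicate 1 was left out and 0.0525 when TL+L replicate 3 was, whereas each of the other 9 genes passed in 1 of them, the fit without TL+L replicate 2.

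The same genes were also read in the other treated groups, which share the PBS samples with TL+L. TSeL+L was below every PBS sample for all 10 genes, as it was for 36.4% of all genes tested. It lay within the range of the TL+L samples for all 10, a share that was not counted over all genes. None of the 10 passed in TSeL+L against PBS by edgeR, where 0.0127% of all genes did. DESeq2 passed 7 of them and 9.59% of all genes. By edgeR, 8 were lower at an unadjusted p under 0.05, as were 11.1% of all genes tested, the exceptions being Kdr and Tek. The log2 fold changes ran from -0.60 for Tek to -1.76 for Robo4, with a median of -1.38 against 0.00 over all genes. Plvap had the lowest adjusted p, 0.0917, at a log2 fold change of -1.39 (SE 0.222). Without TL+L replicate 2, 9 of the 10 passed, where 13.7% of all genes did, and Tek did not, with an edgeR adjusted p of 0.265. In each of the other 5 fits that left out a TL+L or PBS sample 0 of the 10 passed.

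TSeL was also below every PBS sample for all 10 genes, as it was for 33.4% of all genes. None passed by edgeR, where 0% of all genes did, and DESeq2 passed 1 of the 10 and 8.57% of all genes. Pecam1 and Plvap were lower at an unadjusted edgeR p under 0.05, as were 7.36% of all genes. The log2 fold changes ran from -0.38 for Flt1 to -1.02 for Plvap, whose edgeR adjusted p was 0.123. The median was -0.78 against 0.01 over all genes. When TL+L replicate 2 was left out 1 of the 10 passed, Plvap, at an edgeR adjusted p of 0.0377, where 8.35% of all genes did.

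**Figure D3:**
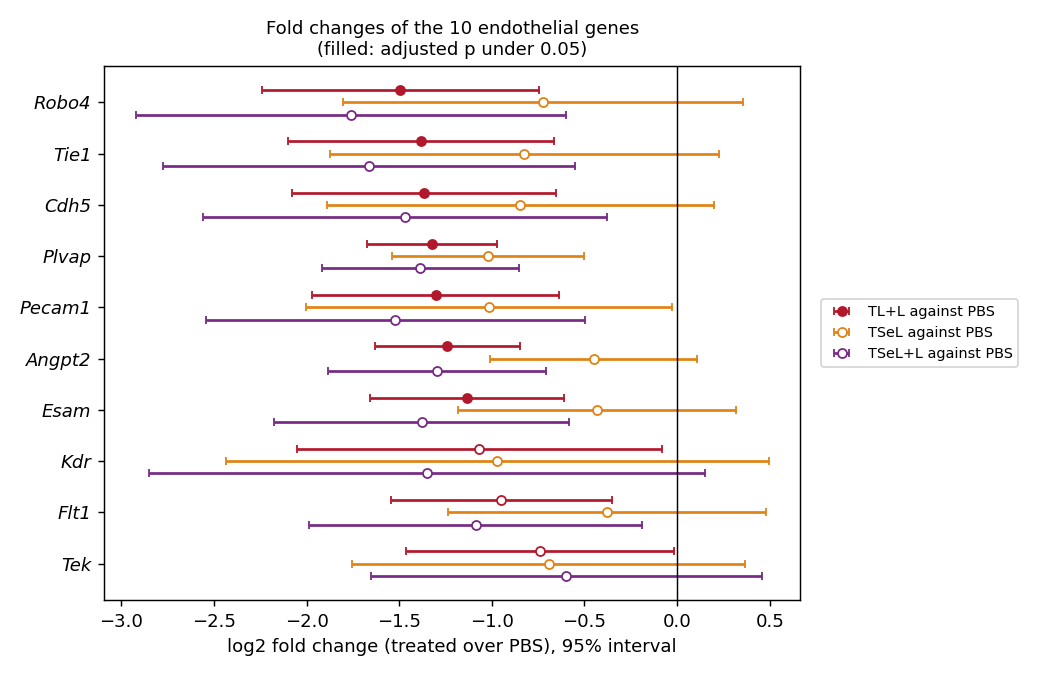
Log2 fold change over PBS of each gene in TL+L, TSeL and TSeL+L, with 95% intervals from edgeR's quasi-likelihood fit and filled points where the adjusted p was under 0.05. All 30 points are below 0, 7 of the TL+L points are filled, and the intervals of TSeL and TSeL+L, which rest on 1 sample each, are the wider ones.

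TSeL+L was next set against TL+L, the other group whose name ends in +L. None of the 10 genes passed, where 0% of all genes did, and none had an unadjusted edgeR p under 0.05, as did 0.336% of all genes; DESeq2 also passed none of them, and 0.00633% of all genes. The log2 differences ran from -0.28 for Kdr to 0.14 for Tek, with a median of -0.18 against -0.04 over all genes. The median was 0.14 without TL+L replicate 2, and 1 of the 10 differences was negative there. With that replicate 9 of the 10 were negative, as were 60.9% of all genes. The intervals were wide. Plvap differed by -0.06 with a 95% interval of -0.55 to 0.43, and Kdr by -0.28 with an interval of -1.69 to 1.12, so differences within those bounds are not excluded here.

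TSeL+L was lower than TSeL for 9 of the 10 genes, where 55.6% of all genes had a negative log2 difference. The exception was Tek, at 37.5 CPM for TSeL+L against 35.1 CPM for TSeL. None passed by edgeR, where 0% of all genes did, and DESeq2 passed none of the 10 and 2.28% of all genes. Esam, at a log2 difference of -0.95, and Angpt2, at -0.85, were lower at an unadjusted edgeR p under 0.05, as were 7.22% of all genes, and their adjusted p-values were 0.408 and 0.381. Robo4 had the largest difference, -1.04, with a 95% interval of -2.33 to 0.26. The median of the 10 was -0.67 against -0.07 over all genes. TSeL lay above all TL+L samples for 6 of the genes and within their range for 4. The shares of all genes that did so were not counted, so these counts have no background beside them.

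Levels of different genes were compared in FPKM, the deposited values per length and depth. In TL+L skin Pecam1 was the highest at 46.8 ± 16.5 FPKM, followed by Plvap at 44.4 ± 4.98, Cdh5 at 19.4 ± 7.67, Esam at 19.3 ± 5.30, Tie1 at 10.8 ± 4.24 and Kdr at 8.92 ± 5.01 FPKM (SD, n = 3). Below them came Tek, Flt1, Robo4 and Angpt2 at 8.12 ± 2.70, 6.91 ± 2.51, 5.09 ± 2.11 and 4.04 ± 0.251 FPKM. Plvap was apart from Cdh5, and Esam from Tie1, in every TL+L sample, while the ranges of all other neighbours in this order overlapped. In PBS skin the order was the same down to Kdr, at 106 ± 18.2 for Pecam1, 102 ± 15.8 for Plvap, 45.9 ± 8.95 for Cdh5, 38.9 ± 5.36 for Esam, 25.7 ± 5.05 for Tie1 and 17.2 ± 5.01 FPKM for Kdr (SD, n = 3). It then ran Robo4, Tek and Flt1, close together at 12.7 ± 0.471, 12.5 ± 3.50 and 12.1 ± 1.51 FPKM, and Angpt2 at 8.74 ± 1.61 FPKM. The gaps in PBS were the same as in TL+L, below Plvap and below Esam, and Robo4 was the gene that stood at a different place, in each group among neighbours that it overlapped. FPKM of TSeL and TSeL+L was not used here.

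Ratios of counts within a sample show whether the genes differed among themselves, since a scaling shared by all genes drops out of them. They compare samples and not the levels of the 2 genes, whose lengths differ. Tek to Tie1 was 0.911, 0.878 and 1.04 in TL+L skin, 0.654 in TSeL, 1.25 in TSeL+L, and 0.583, 0.543 and 0.646 in PBS skin. All TL+L values were above all PBS values, and TSeL+L was the highest. Tek to Cdh5 also did not overlap, at 0.464, 0.471 and 0.591 in TL+L, 0.360 in TSeL, 0.593 in TSeL+L, and 0.323, 0.291 and 0.348 in PBS. Each had an exact permutation p of 0.1 (two-sided, n = 3 each), which is the smallest that 3 against 3 samples can give, and an adjusted p of 0.35 over the 7 ratios compared. Both ratios share Tek, and the 7 were chosen after values were seen, so these p-values only describe the samples. The other 5 ratios overlapped between TL+L and PBS: Flt1 to Kdr, Angpt2 to Tek, Kdr to Cdh5, Robo4 to Cdh5 and Plvap to Pecam1, with exact permutation p-values of 0.2 to 0.9. Plvap to Pecam1 averaged 0.581 ± 0.153 in TL+L and 0.557 ± 0.0487 in PBS (SD, n = 3 each).

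Among the 8 samples the pattern of Cdh5 was the most like that of the other 9 genes, with a Pearson r of 0.998 between its log2 CPM and their mean, and Tek the least, with 0.878. These values describe 8 samples of which the 3 PBS samples were the highest for all of the 10 genes but Kdr and Tek, and they carry no p. Outside the 10 genes, 12602 genes with a mean of at least 5 CPM were ranked in the same way. The closest was Ets1, a transcription factor of the ETS family, with r = 0.998. Next came Itga1 (an integrin collagen receptor), Clec14a (an endothelial C-type lectin), Cpt1c (a carnitine palmitoyltransferase family member), Arap3 (a regulator of small GTPases) and Maged1 (a MAGE family protein), each with r near 0.995. Ets1 had 43.5, 82.7 and 44.7 CPM in TL+L skin, 80.9 CPM in TSeL, 51.3 CPM in TSeL+L, and 141, 134 and 176 CPM in PBS skin.

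Other genes of the pathways and of other cell types were read from lists that hold 186 tested genes outside the 10. The calls of these lists in TL+L skin depended on single samples too. By edgeR 33 of the 186 fell and 15 rose, where 7.17% of all genes fell and 5.67% rose. Without TL+L replicate 2 these counts were 89 and 27, in the fit that called 40% of all genes, 21.4% lower and 18.6% higher. In the other 5 fits that left out a TL+L or PBS sample, 0 to 2 fell and 0 or 1 rose. At an unadjusted p under 0.05, 52 to 58 were lower and 26 to 40 higher in these fits, where the share of all genes was not counted.

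Of 24 further blood endothelial markers, 12 fell in TL+L skin and 0 rose, 22 had a negative log2 fold change, and the median was -1.15. In order of p they were led by Ecscr (an endothelial surface protein), Rasip1 (a Ras-interacting protein of vessel lumens), Calcrl (the adrenomedullin receptor) and Emcn (a sialomucin of capillaries and veins). Emcn had 10.9, 24.4 and 13.2 CPM in TL+L, 26.6 CPM in TSeL, 14.1 CPM in TSeL+L, and 41.8, 47.1 and 53.7 CPM in PBS, a log2 fold change of -1.56 in TL+L (SE 0.315, edgeR adjusted p 0.0335). Every treated sample of Emcn was below every PBS sample, with TL+L replicate 2 and TSeL the nearest to PBS. None of the 24 passed in TSeL or in TSeL+L, where the medians were -0.65 and -1.30. With TL+L replicate 2 left out, 22 of the 24 fell in TL+L, against 21.4% of all genes. In that fit 4 passed in TSeL, against 8.35% of all genes, and 17 in TSeL+L, against 13.7%. In each of the other 5 fits 0 of the 24 passed in TL+L.

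Of the 8 other VEGF ligands, receptors and coreceptors, 2 fell in TL+L skin and 0 rose, with a median of -0.75. Pgf, placental growth factor, a ligand of Flt1, had 3.60, 3.64 and 2.34 CPM in TL+L, 7.62 CPM in TSeL, 2.19 CPM in TSeL+L, and 11.3, 8.73 and 9.18 CPM in PBS, with a log2 fold change of -1.60 in TL+L (edgeR adjusted p 0.0235). Flt4, the VEGF-C receptor found mostly on lymphatic vessels, fell with a log2 fold change of -1.16 (edgeR adjusted p 0.0322). Vegfa, the main growth factor for Kdr and Flt1, did not pass. It had 103, 132 and 78.7 CPM in TL+L, 279 CPM in TSeL, 107 CPM in TSeL+L, and 144, 141 and 156 CPM in PBS. TSeL was the highest sample for Vegfa and the TL+L samples were all below the PBS samples. Vegfa had an edgeR adjusted p of 0.122 in TL+L and 0.154 in TSeL. Of these 8 genes, 5 fell without TL+L replicate 2 and 0 in each of the other 5 fits.

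None of the 5 other angiopoietin and Tie partner genes passed in TL+L skin, and all 5 had negative fold changes with a median of -0.97. Angpt1, the ligand that activates Tek, had 6.20, 17.1 and 8.31 CPM in TL+L, 16.5 CPM in TSeL, 9.63 CPM in TSeL+L, and 25.6, 20.8 and 18.4 CPM in PBS, with an edgeR adjusted p of 0.110 in TL+L. The TL+L values were all below the PBS values. Ptprb, or VE-PTP, the phosphatase that restrains Tek, had a log2 fold change of -0.97 in TL+L (edgeR adjusted p 0.0903). Of the 5, 3 fell without TL+L replicate 2, the only one of the 6 fits in which any did.

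The list of Slit, Robo and netrin guidance genes did not move with Robo4. Of its 7 genes 0 fell and 3 rose in TL+L skin, with a median of 0.77. Robo1, a Slit receptor of many cell types, had 79.0, 57.0 and 88.3 CPM in TL+L, 33.1 CPM in TSeL, 79.3 CPM in TSeL+L, and 35.4, 35.6 and 31.3 CPM in PBS. Robo1 was higher in all TL+L samples and in TSeL+L than in any PBS sample, with a log2 fold change of 1.13 in TL+L (SE 0.180, edgeR adjusted p 0.0244), while TSeL was within the PBS range. Unc5b, a netrin receptor, rose with a log2 fold change of 1.59 in TL+L (edgeR adjusted p 0.0464), and Robo2 with 0.78 (edgeR adjusted p 0.0489). Leaving out TL+L replicate 2, 2 of the 7 fell and 4 rose, and in each of the other 5 fits 0 passed, so the calls of Robo1, Unc5b and Robo2 were lost there.

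Of 11 other junction genes, many of which epithelial cells also use, 0 fell and 1 rose in TL+L skin, with a median of 0.20. The gene that rose was Ocln, a tight junction protein, at 24.8, 14.1 and 28.3 CPM in TL+L, 4.06 CPM in TSeL, 20.6 CPM in TSeL+L, and 7.93, 8.36 and 7.76 CPM in PBS. TSeL was thus below PBS for Ocln, and the other treated samples above it. Of these 11, 3 fell and 5 rose without TL+L replicate 2, where 21.4% of all genes fell and 18.6% rose, and 0 passed in each of the other 5 fits. Of 11 Notch pathway genes, 2 fell and 4 rose in TL+L skin, with a median of -0.81. The 2 that fell were Notch4, the Notch receptor of endothelium, at 17.6, 26.0 and 15.9 CPM in TL+L, 39.7 CPM in TSeL, 15.8 CPM in TSeL+L, and 42.9, 39.5 and 60.6 CPM in PBS, and Esm1, a tip cell gene, named here because it completes the count. The 4 that rose were the ligands Jag2 and Jag1, the target gene Heyl, and Notch1, the last also named to complete the count. Leaving out TL+L replicate 2 gave 6 falls and 4 rises among the Notch genes, and each of the other 5 fits gave 0.

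Of 14 endothelial transcription factors, 5 fell in TL+L skin, where 7.17% of all genes did, and 0 rose. Of the 14, 13 had a negative log2 fold change, and the median was -0.82. The 5 that fell were Elk3, Ets2, Ets1, Fli1 and Erg, all of the ETS family. Its members bind DNA with the core GGAA and are known to act at many endothelial genes. Erg, the last of the 5 in order of p, is named to complete the count. The list was chosen with ETS genes on it, so these calls are no test of that family. Fli1 had 10.97, 23.2 and 11.1 CPM in TL+L, 23.8 CPM in TSeL, 14.8 CPM in TSeL+L, and 34.6, 35.5 and 44.7 CPM in PBS, with a log2 fold change of -1.34 in TL+L (SE 0.324, edgeR adjusted p 0.0453). The treated samples of Fli1 were all below the PBS samples. Without TL+L replicate 2, 11 of the 14 fell, against 21.4% of all genes. In each of the other 5 fits 0 fell, so the 5 ETS genes did not pass there.

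Promoters of 5 of the 10 genes, Kdr, Flt1, Tek, Tie1 and Robo4, were matched in the RefSeq table on GRCm38.p6. The 150 bases before the start were searched for GGAA on either strand. In the windows shown, each GGAA and its reverse complement TTCC is in capitals. Those of Robo4, with the largest fall, Tek, with the smallest fold change, and Flt1, with the most matches, are shown 5′ to 3′ along the gene. They lie at chr9:37401822-37401971 on the plus strand, chr4:94739139-94739288 on the plus strand and chr5:147726012-147726161 on the minus strand.
Robo4: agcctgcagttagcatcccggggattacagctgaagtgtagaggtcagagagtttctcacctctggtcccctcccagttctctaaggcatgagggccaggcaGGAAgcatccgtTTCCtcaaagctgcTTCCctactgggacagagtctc
Tek: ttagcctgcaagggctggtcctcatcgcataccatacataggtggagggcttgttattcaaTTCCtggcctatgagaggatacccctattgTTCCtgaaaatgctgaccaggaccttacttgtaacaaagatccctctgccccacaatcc
Flt1: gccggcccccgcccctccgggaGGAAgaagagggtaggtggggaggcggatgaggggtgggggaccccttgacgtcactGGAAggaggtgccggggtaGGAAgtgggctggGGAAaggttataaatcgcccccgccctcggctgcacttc

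GGAA was found 4 times in the Flt1 window, 3 times in those of Robo4 and Tie1, and 2 times in those of Tek and Kdr. Of 32851 promoters searched in the same way, 80.8% held GGAA at least once, 50.9% at least 2 times, 26.1% at least 3 times and 10.9% at least 4 times. The longer AGGAAG, which contains GGAA and was also searched on both strands, occurred 2 times in Flt1, 1 time in Robo4 and 0 times in the other 3, and in 19.7% of all promoters. GATAAG, the core bound by GATA factors, occurred in none of the 5 and in 3.75% of all promoters. A match describes the letters and is not a binding site, and a window without one says nothing of the factor.

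Markers of other cell types moved in the same samples, and their part in the falls of the endothelial genes was not tested. Of 10 leukocyte markers 5 fell in TL+L skin, with a median of -1.40, and together they took 0.0523% to 0.110% of counts in TL+L, 0.0784% in TSeL, 0.0798% in TSeL+L and 0.154% to 0.196% in PBS. The leading leukocyte gene was Cd53, a tetraspanin, at 47.2, 94.3 and 51.0 CPM in TL+L, 90.6 CPM in TSeL, 72.6 CPM in TSeL+L, and 203, 180 and 222 CPM in PBS. Of 8 platelet and megakaryocyte markers 2 fell, Itgb3 and Pf4, with a median of -1.47, and the list took 0.00581% to 0.00884% of counts in TL+L, 0.00849% in TSeL, 0.00626% in TSeL+L and 0.0140% to 0.0165% in PBS. Pecam1 and Esam are also genes of such cells.

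Of 8 fibroblast markers 1 fell, Pdgfra, the median was -1.12, and the list took 1.06% to 3.67% of counts in TL+L, 1.97% in TSeL, 2.30% in TSeL+L and 4.35% to 6.01% in PBS. Of 12 pericyte and vascular smooth muscle markers 3 fell, Mcam, Pdgfrb and Acta2, and 1 rose, Cspg4, with a median of -0.84. Pdgfrb, the PDGF receptor of pericytes, had 74.5, 123 and 83.5 CPM in TL+L, 109 CPM in TSeL, 77.3 CPM in TSeL+L, and 197, 194 and 209 CPM in PBS. Of 8 lymphatic endothelial markers 1 fell, Pdpn, a gene that lymphatic vessels share with other skin cells, with a median of -0.75. Of all genes tested 7.17% fell, and the single calls among fibroblast and lymphatic markers are near that share. Leukocyte markers, of which 5 of 10 fell, were above it, so falls were not limited in these lists to genes of blood endothelium. When TL+L replicate 2 was left out, 8 of 10 leukocyte, 4 of 8 platelet, 6 of 8 fibroblast, 9 of 12 pericyte and smooth muscle, and 5 of 8 lymphatic markers fell in TL+L, against 21.4% of all genes. In the other 5 fits 0 leukocyte, fibroblast or pericyte and smooth muscle markers passed, and 1 platelet and 1 lymphatic marker fell in the fit without TL+L replicate 1 but 0 in the rest.

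Other lists held genes that rose, or none that passed, in the fit where 5.67% of all genes tested rose. The single hair marker that rose is near that share. Of 10 epidermal keratinocyte markers 0 fell and 3 rose in TL+L, Krt15, Dsg1a and Ivl, with a median of 0.90, and they took 1.26% to 1.33% of counts in TL+L, 0.622% in TSeL, 1.75% in TSeL+L and 0.758% to 1.08% in PBS. Of 19 hair shaft and root sheath markers 1 rose, Krt36, with a median of 4.81, and they took 0.565% to 3.94% of counts in TL+L, 0.0143% in TSeL, 2.02% in TSeL+L and 0.00207% to 0.196% in PBS. Of 8 adipocyte markers 2 rose, Cidec and Retn, with a median of 1.59. The 20 skeletal muscle markers took 0.965% to 4.46% of counts in TL+L, 13.5% in TSeL, 3.60% in TSeL+L and 1.73% to 4.57% in PBS, and 0 passed. None of 3 red blood cell markers passed, with a median of -0.53. Leaving the muscle and hair markers out of the library totals and scaling factors left 7 of the 10 endothelial genes called in TL+L, where 13.3% of all genes were. In the fit without TL+L replicate 2, 5 of the 20 muscle markers fell, with a median of -1.34, and 6 of 8 adipocyte, 4 of 10 keratinocyte and 3 of 19 hair markers rose. Of all genes, 21.4% fell and 18.6% rose there, and the muscle and hair counts are near these shares. In the other 5 fits 0 muscle or adipocyte markers passed, and at most 1 keratinocyte and 1 hair marker rose. No red blood cell marker passed in any of the 6.

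**Figure D4:**
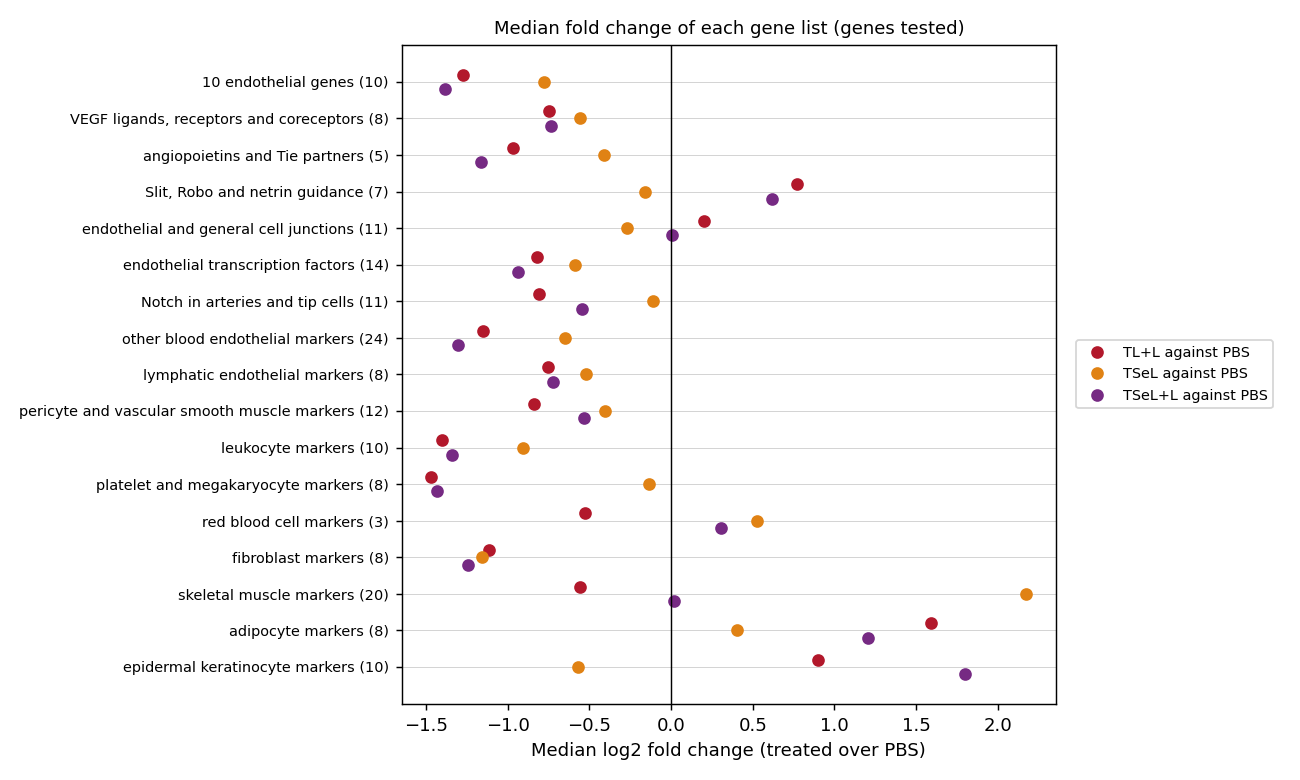
Median log2 fold change over PBS of the 10 endothelial genes and of 16 gene lists in TL+L, TSeL and TSeL+L, with the number of genes tested in parentheses and 0 as a vertical line. The 10 genes and the other blood endothelial, leukocyte and fibroblast lists are left of 0 in all 3 groups. So are the VEGF, angiopoietin, transcription factor, Notch, lymphatic, pericyte and platelet lists. Adipocyte markers are right of 0 in all 3 groups, and the remaining lists differ in side between groups. The hair markers, at 4.81 in TL+L, -3.30 in TSeL and 4.61 in TSeL+L, lie beyond the axis and are not drawn.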

How the data were processed

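RNA was taken from flash-frozen skin with Trizol and made into Illumina TruSeq libraries after selection on oligo-dT beads, per the labels' protocols. The authors deposited expected counts and FPKM per gene and expected counts per transcript. Bowtie2 and RSEM are the tools listed in the submitters' processing notes. No source used here gives their versions, the genome build, the annotation or the strand setting, so reads of overlapping or antisense genes cannot be told apart. Of the deposited expected counts 88.7% were whole numbers (a tolerance of 0), and all were rounded. Columns coded TS were taken as TSeL and those coded TSL as TSeL+L, which no label states. FPKM as deposited was used for PBS and TL+L alone, and 42 other columns of per-sample values in the files were not used.

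The 8 samples (3 TL+L, 1 TSeL, 1 TSeL+L, 3 PBS, the lone ones being means of 3 columns) were fitted together with edgeR 4.0.16 (R 4.3.3), using TMM factors, 1 coefficient per group and the robust quasi-likelihood F-test with 4 residual degrees of freedom. The filter filterByExpr left 15791 genes, and p-values were Benjamini-Hochberg adjusted over all of them. The common coefficient of biological variation was 0.278. All tests were two-sided. The standard error is the fold change divided by the root of F. Log2 CPM used a prior count of 2.

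The 10 genes, the 17 other lists (190 genes, 189 in the table, 186 tested) and the tests were chosen with earlier results of these data known. Named genes were the 10 members and the 6 genes of highest likeness. Up to 4 genes per list were named, those with the smallest p in TL+L against PBS. Transcripts with at least 10% of a gene's counts in a sample were named for Flt1 alone. Pecam1, Tek and Robo4 also had several such transcripts, whose shares are not described here. The 7 ratios were chosen after values were seen. The spread between 3 samples, more than the depth, limits the precision. Alternatives were DESeq2 1.42.0, other scalings, no filter, all 12 columns as samples, a replicate block, and leaving out each sample or column.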

Additional observations from a re-analysis of the deposited data

How the results depend on the processing

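For TL+L against PBS, 2029 genes were called. DESeq2 called 4064, the fit of all 12 columns 7164, the fit of PBS and TL+L alone 2183, and that fit with the sample number as replicate block 1066. The block called 3 of the 10 endothelial genes, Plvap, Robo4 and Angpt2, against 7 without it. Same-numbered TL+L and PBS samples deviated together with r of -0.175, 0.13 and 0.212, so the numbers were not taken to pair the samples. Leaving out a sample or column gave 16 to 6299 genes and 0 to 10 endothelial genes. Library totals without TMM moved the median of all genes from 0.01 to 0.15 and the calls to 1521 higher and 902 lower, against 896 and 1133; 7 endothelial genes still fell.

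For TSeL against PBS, DESeq2 called 1354 genes and 1 of the 10, 12 columns 6521 and 9, and the leave-outs 0 to 1315 and 0 to 1. For TSeL+L against PBS these were 1515 and 7, 7093 and 9, and 0 to 2163 and 0 to 9. For TSeL+L against TL+L, DESeq2 called 1 gene, 12 columns 3 and the leave-outs 0 to 0. For TSeL+L against TSeL, DESeq2 called 360 genes, 12 columns 6618 with 6 of the 10, and the leave-outs 0 to 0. The 12-column fit takes the averaged columns as replicates. Library totals moved the median of all genes to -0.18 in TSeL and 0.16 in TSeL+L against PBS, and to 0.27 in TSeL+L against TSeL.

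Of the single-gene values under alternatives, 824 kept direction and call, 50 gained a call, 36 lost one and 10 reversed, all in TSeL+L against TL+L. Over the fits that left out a sample or column, these differences ran from -0.393 to 0.12 for Pecam1, -0.2485 to 0.29 for Cdh5, -0.506 to 0.30 for Kdr, -0.286 to 0.18 for Flt1, -0.454 to 0.10 for Tie1, -0.109 to 0.033 for Plvap, -0.492 to 0.16 for Robo4 and -0.346 to 0.015 for Esam, with the highest value without TL+L replicate 2. Tek ran from -0.039 without TL+L replicate 1 to 0.455 without replicate 2, and Angpt2 from -0.12 to 0.037, the highest without column 3 of TSeL+L. The cause was not tested.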
